A study of Mus musculus with 18 samples.

Results

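The effect of Gαq overexpression on the left ventricle (LV) was measured in 9 of the 18 RNA-seq libraries of the study, all from mice fed control diet (CD), which is chow without drug. They were the 5 libraries of mice with cardiac-specific overexpression of Gαq (Gαq CD) and the 4 libraries of wild-type mice (WT CD), chosen by the group names in the count table. The study used male mice, which went on the diet at the age of 4 weeks and were sacrificed after 16 weeks, at 20 weeks of age. Its other 9 libraries came from WT (n = 5) and Gαq (n = 4) mice whose chow held ertugliflozin (ERTU), an inhibitor of the renal glucose transporter SGLT2, and they entered the fit and served as a second, separate comparison of the genotypes. The question was which genes differ between the failing Gαq ventricle and the WT ventricle when no drug is given. The transgene is limited to the heart, its promoter and copy number are not given in the sources used here, and transgene and endogenous transcripts were not separated in the counts.

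Gαq, the product of Gnaq, is the G protein subunit that couples receptors for angiotensin II, endothelin and noradrenaline to phospholipase C beta. Phospholipase C releases inositol trisphosphate and diacylglycerol, which raise calcium and activate protein kinase C. Sustained signalling through this route in cardiac myocytes is a known trigger of hypertrophy, return of the fetal gene program and dilated heart failure, and the failing heart is known for reduced oxidation of fatty acids.

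Counts per library ran from 15383566 to 20908363 in the 9 CD libraries, and depth did not separate the genotypes (exact permutation p = 0.222, 2-sided). Pearson correlations of log2 CPM ran from 0.971 to 0.986 within a genotype and from 0.955 to 0.977 between them. Levels are given as CPM, which are read counts scaled to 1 common library size (by TMM), and are not corrected for transcript length, so they compare libraries and not genes. The tissue label was checked against marker genes. The summed level of 10 cardiomyocyte markers ran from 82110 to 114700 CPM in WT CD and from 77740 to 102200 CPM in Gαq CD, while 10 atrial markers, with 9 tested and 0 called, summed to 104.7 to 370.2 and 90.5 to 824.4 CPM, with the highest value in Gαq CD 8.

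Gnaq (ENSMUSG00000024639, chromosome 19, 16132831 to 16387463, GRCm38), measured first as a check of the genotype, stood at 83.6, 134, 209 and 45.5 CPM in the WT libraries 1, 2, 4 and 5. It stood at 6299, 9693, 8037, 11662 and 1639 CPM in the Gαq libraries 6 to 10. Every Gαq library lay above every WT library, and Gαq CD 10 had the lowest Gnaq level of its group. The mean log2 CPM differed by 5.94, or 61.3-fold (exact permutation p = 0.0159, 2-sided, the smallest p that 126 splits of 9 libraries can give).

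Of 16270 genes tested, 1318 (8.10%) were called, that is, had an adjusted p under 0.05. Of these, 651 (4.00% of genes tested) were higher in Gαq and 667 (4.10%) were lower. Rises were larger than falls. At least a 2-fold difference was found for 287 higher and 163 lower genes, at least 4-fold for 81 and 35, and at least 8-fold for 23 and 7. The median log2 fold change was 0.90 among the genes called higher, -0.60 among those called lower and 0.01 among all genes tested. The WT and Gαq libraries did not overlap for 1512 genes (9.29% of genes tested), and of the 1318 genes called, 1000 (75.9%) had no overlap. Of the 4068 genes with the highest mean level, 149 were called higher and 305 lower (11.2% called), whereas of the 4068 with the lowest level, 191 were called higher and 86 lower (6.81%). Long noncoding RNAs, with 64 higher and 30 lower of 1324 tested (7.10%), leaned to the higher side, while protein-coding genes, with 569 and 612 of 13611 (8.68%), were split about evenly. The total fell to 788 genes without WT CD 1 and to 851 without WT CD 2.

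**Figure D1:**
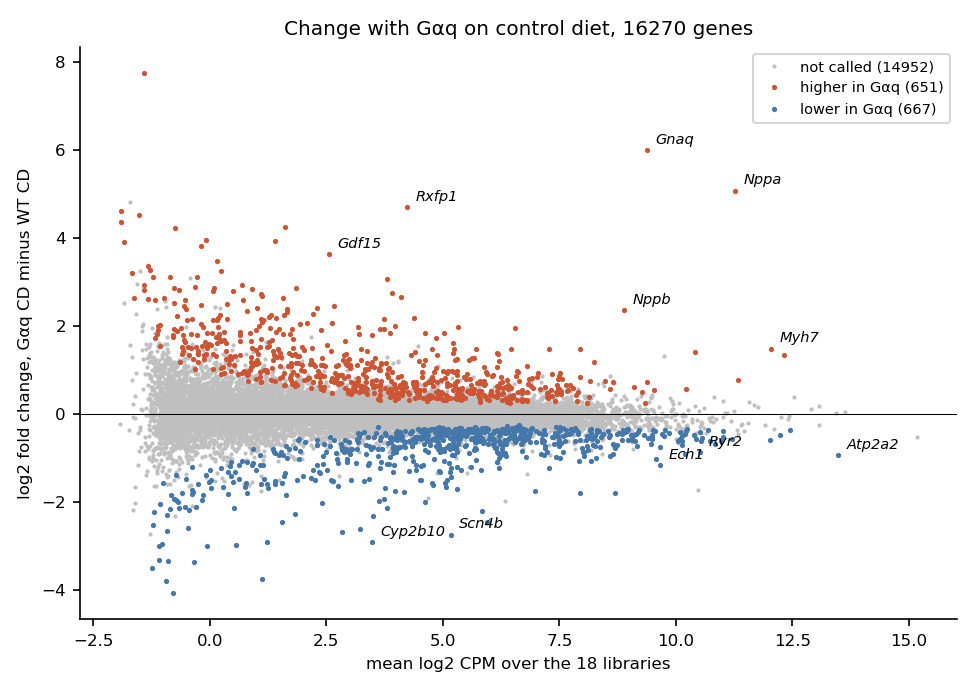
Each point is 1 of the 16270 genes tested, with its mean log2 CPM over the 18 libraries on the x axis and its log2 fold change in Gαq CD over WT CD on the y axis. Orange marks the 651 genes called higher, blue the 667 called lower, and grey the 14952 not called. Blue points crowd at high expression and the farthest orange points, among them Gnaq, Nppa and Rxfp1, stand well apart from the rest.

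Where the genotypes did not overlap and log2 CPM averaged 1 or more, the largest rise after Gnaq was that of Nppa (ENSMUSG00000041616, chromosome 4, 148000722 to 148002079, plus strand), which encodes atrial natriuretic peptide. Nppa stood at 536, 364, 480 and 259 CPM in WT and at 19069, 10626, 11653, 13513 and 14183 CPM in Gαq. The log2 fold change was 5.07 ± 0.39 (SE), or 33.7-fold (adjusted p = 1.35e-07). Gαq CD 10, with the lowest Gnaq level, held the second highest Nppa level. The neighbouring gene Nppb (chromosome 4, 147985788 to 147987205, plus strand), which encodes brain natriuretic peptide, stood at 118, 223, 275 and 177 CPM in WT and at 956, 953, 1519, 827 and 856 CPM in Gαq. It rose by 2.36 ± 0.25 on the log2 scale, or 5.15-fold (adjusted p = 5.87e-06), again with no overlap. Clcn6, the next protein-coding gene on the far side of Nppa, was not called, with a log2 fold change of 0.09 (adjusted p = 0.664). The noncoding gene Gm13054 (chromosome 4, 148001091 to 148004014, minus strand) overlaps Nppa on the opposite strand. Its level was 0.314 to 0.98 CPM in WT and 9.38 to 17.4 CPM in Gαq (log2 fold change 4.24 ± 0.31, adjusted p = 1.08e-07). The methods state counting on the same strand but do not name a strand-marking kit, so reads of Gm13054 and Nppa may not be separated.

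The promoters of both natriuretic peptide genes are shown because they lie in 1 cluster and moved together by different amounts. Each is the 250 bases before the RefSeq start site in GRCm38.p6, 5′ to 3′ on the plus strand, at chr4:148000472-148000721 for Nppa and at chr4:147985650-147985899 for Nppb. Capitals mark the searched motifs CATTCC (the core of the M-CAT element bound by TEAD factors, here read on the opposite strand) and AGATAA (bound by GATA factors), which were looked for on both strands. Nppb held 1 of each, at positions -105 and -84 from the start, and Nppa held none of the searched letters. TGATAA, a variant of the GATA motif that was not searched, occurs in both sequences.
Nppa: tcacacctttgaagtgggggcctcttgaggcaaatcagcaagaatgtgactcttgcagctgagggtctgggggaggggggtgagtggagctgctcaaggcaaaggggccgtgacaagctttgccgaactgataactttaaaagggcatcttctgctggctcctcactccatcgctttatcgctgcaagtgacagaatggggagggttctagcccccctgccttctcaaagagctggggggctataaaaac
Nppb: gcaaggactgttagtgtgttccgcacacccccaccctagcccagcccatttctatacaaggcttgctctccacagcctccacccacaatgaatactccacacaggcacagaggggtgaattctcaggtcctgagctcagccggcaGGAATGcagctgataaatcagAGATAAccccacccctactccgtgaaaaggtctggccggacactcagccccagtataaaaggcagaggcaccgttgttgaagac
In windows of 300 bases around the start site, CATTCC was found in 12.7% of 14367 windows of all genes tested, in 14.3% of those of genes called higher and in 12.9% of those of genes called lower. AGATAA was found in 6.82%, 8.36% and 7.91%.

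Rxfp1 (ENSMUSG00000034009, chromosome 3, 79641611 to 79737880, minus strand), the receptor of the peptide hormone relaxin, stood at 3.34, 3.13, 4.4 and 5.77 CPM in WT and at 112, 107, 94.9, 142 and 79.9 CPM in Gαq. Every Gαq library was far above every WT library, and the log2 fold change was 4.69 ± 0.32, or 25.8-fold (adjusted p = 4.31e-08). Gm26984, an RNA annotated inside Rxfp1 on the same strand (79673367 to 79676876), was chosen after its values were seen. It had 0 counts in each of the 4 WT libraries and 26, 38, 36, 28 and 13 counts in the Gαq libraries. Its reads cannot be told apart from unspliced Rxfp1 RNA here. Edn3, the ligand endothelin 3, rose from 0.569 to 0.941 CPM in WT to 8.29 to 12.3 CPM in Gαq (15.3-fold, log2 fold change 3.94 ± 0.36, adjusted p = 1.35e-06). Gdf15, a circulating cytokine of cell stress, stood at 1.37 to 2.88 CPM in WT and at 21.6, 24.7, 35.9, 32.8 and 11 CPM in Gαq, with the lowest of these in Gαq CD 10 (12.3-fold, adjusted p = 0.000308).

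The other 7 of the 12 largest rises ran from 6.24-fold to 18.9-fold, Gm13054 included. Npy4r, a receptor of the neuropeptide Y family, was 7.25-fold higher, and Slc24a2, a sodium, calcium and potassium exchanger, was 6.75-fold higher. Adamts20, a secreted metalloprotease, was 6.64-fold higher, and Slitrk4, a neuronal transmembrane protein, was 6.24-fold higher. The noncoding genes Gm40649 and Gm31659 were 6.41-fold and 6.33-fold higher.

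**Figure D2:**
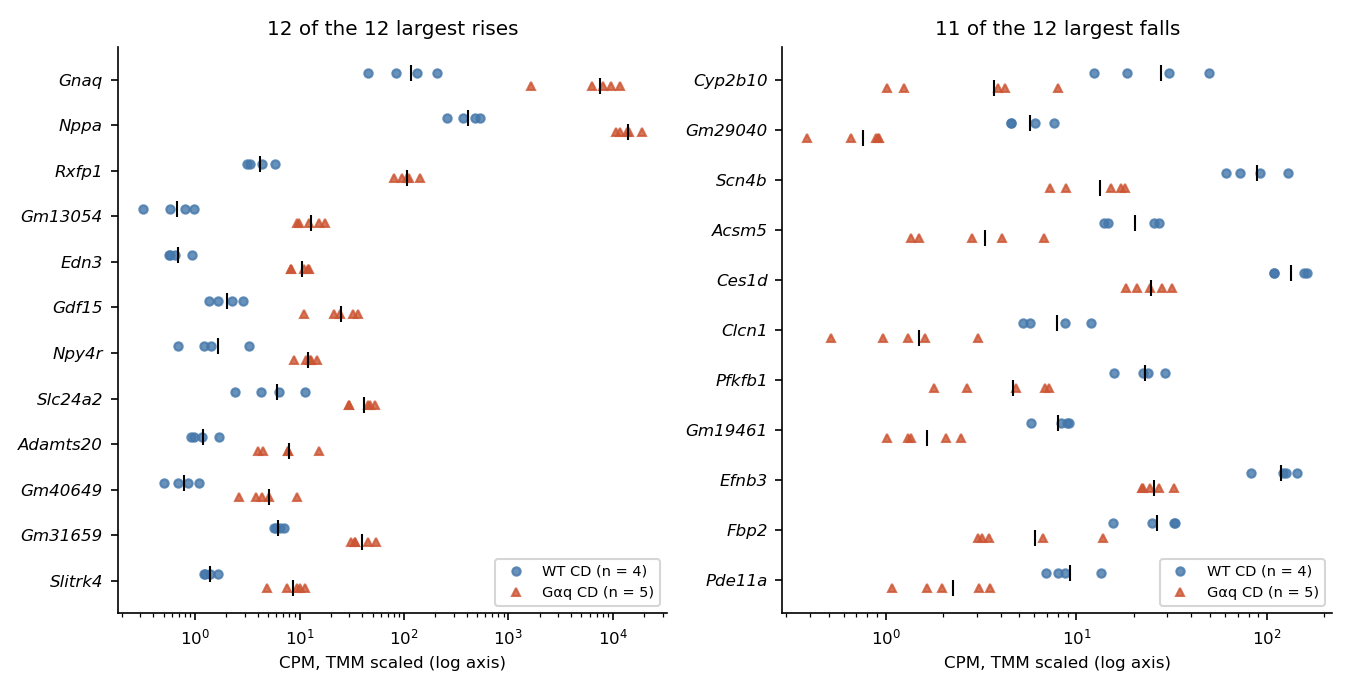
CPM (log axis) in each CD library for the 12 genes with the largest rise (left) and 11 of the 12 with the largest fall (right). Circles are the 4 WT libraries, triangles the 5 Gαq libraries and ticks the group means. The genotypes do not overlap for any gene shown, which the choice of genes required.

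Scn4b and Ces1d were among the 12 largest falls. Scn4b, a beta subunit of the voltage-gated sodium channel, stood at 91.3, 72.1, 60.7 and 129 CPM in WT and at 15.1, 7.3, 8.78, 18 and 17.1 CPM in Gαq (-2.74 ± 0.29, adjusted p = 6.68e-06). Ces1d, a carboxylesterase that hydrolyses triglyceride, stood at 162, 157, 109 and 109 CPM in WT and at 28.0, 20.8, 24.3, 18.2 and 31.7 CPM in Gαq (-2.45 ± 0.19, adjusted p = 1.41e-07). Cyp2b10, a cytochrome P450 enzyme, was 7.5-fold lower, and Gm29040, a noncoding gene, 7.49-fold lower. Acsm5, which activates medium-chain fatty acids, was 6.08-fold lower, and Fbp2, the muscle fructose bisphosphatase, 4.35-fold lower. Pfkfb1, which sets the level of fructose 2,6-bisphosphate, was 4.94-fold lower, Clcn1, a chloride channel of muscle, 5.44-fold lower, and Efnb3, an ephrin, 4.62-fold lower. Pde11a, which degrades cyclic nucleotides, was 4.04-fold lower. Gm19461, 4.83-fold lower, lies antisense within Plekha6, whose own level rose by 0.79 on the log2 scale (adjusted p = 0.0162).

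Signalling genes downstream of Gαq were called at a share near that of all genes. Of 49 effectors tested (G protein subunits, phospholipases, protein kinases C and D, regulators of G protein signalling and others), 2 were called higher, Gnaq itself and Prkca, and 1 lower, Gna12, which is 6.1% against 8.10% of all genes tested. The median log2 fold change of the list was -0.02, against 0.01 for all genes. Prkca, the main conventional protein kinase C of the heart, stood at 33.4, 37.0, 26.7 and 34.6 CPM in WT and at 46.6, 55.0, 42.7, 61.9 and 35.5 CPM in Gαq (0.55 ± 0.17, adjusted p = 0.0474). The groups overlapped at Gαq CD 10. Prkca was called in only 1 of the 9 fits that each left out 1 library, that without Gαq CD 10, and Gna12 (-0.35 ± 0.11, adjusted p = 0.0497) was called in only 2, those without Gαq CD 6 or Gαq CD 10.

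Among 46 receptors and ligands that signal through G proteins, 6 were called higher and 3 lower (19.6%, against 8.10% of all genes tested). The lower members were receptors that couple to Gαq. Adra1a, an alpha1-adrenergic receptor, stood at 49.6, 53.6, 30.0 and 54.5 CPM in WT and at 22.1, 11.7, 11.2, 15 and 17.5 CPM in Gαq. It fell by 1.6 ± 0.23 on the log2 scale (adjusted p = 0.000131) with no overlap. Adra1b, of the same family, fell by 0.80 ± 0.20 (adjusted p = 0.0145, and 0.0584 without WT CD 2). Ednra, the endothelin A receptor, fell by 0.57 ± 0.13 (adjusted p = 0.00864, and 0.0524 without WT CD 1). Agtr1a, the angiotensin II receptor, stood at 24.0 to 36.4 CPM in WT and 13.9 to 32.2 CPM in Gαq (-0.15 ± 0.18, adjusted p = 0.705), and Adrb1, the beta1-adrenergic receptor, at 12.4 to 20.1 and 11.8 to 21.5 CPM (-0.02 ± 0.19, adjusted p = 0.979). Ramp1, a partner protein of the calcitonin receptor family, stood at 3.69, 1.82, 2.72 and 2.82 CPM in WT and at 17.6, 13.8, 17.7, 12.6 and 13.5 CPM in Gαq (2.45 ± 0.24, adjusted p = 3.08e-06). Htr2a, the serotonin 2A receptor that couples to Gαq, rose 2.35-fold (adjusted p = 0.0024), with an overlap at Gαq CD 10. The number called higher ran from 3 without WT CD 1 or Gαq CD 8 to 8 without WT CD 5 or Gαq CD 10.

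Of 34 genes of hypertrophy and the fetal program, 11 were called higher and 1 lower (35.3%, against 8.10% of all genes tested). The median log2 fold change of this list was 0.35. Besides the natriuretic peptides and Gdf15, the genes called higher were Myh7, Ankrd1, Xirp2, Rcan1, Tnnt1, Meox1, Uchl1 and Enah. Myh7, the slow beta myosin heavy chain of the fetal ventricle, stood at 1980, 3717, 1825 and 2794 CPM in WT and at 7832, 8137, 4000, 8065 and 8103 CPM in Gαq. The groups did not overlap, although Gαq CD 8 was near the highest WT library (1.49 ± 0.26, adjusted p = 0.00112). Myh6, the adult alpha isoform, ran from 37787 to 52804 CPM in WT and from 25010 to 40527 CPM in Gαq and was not called (-0.53 ± 0.18, adjusted p = 0.0836), although it was called by DESeq2 (adjusted p = 0.0231), by voom (0.0326) and without Gαq CD 6 (0.0303). Rcan1, an inhibitor of calcineurin that is itself a calcineurin target, stood at 90.7, 99.3, 93.5 and 99.0 CPM in WT and at 288, 258, 323, 273 and 198 CPM in Gαq. Its rise was 2.8-fold (1.49 ± 0.16, adjusted p = 7.24e-06). Acta1, skeletal actin, varied from 286 to 1527 CPM in WT with the highest value in WT CD 1, and from 1391 to 2218 CPM in Gαq (1.33 ± 0.46, adjusted p = 0.088). It was called without WT CD 1 (adjusted p = 0.0139), without a filter on low counts (0.0349) and on the deposited transformed values (0.0295). The single fall was that of Fhl2, a LIM protein of the sarcomere, from 820, 691, 1255 and 460 CPM to 209, 246, 245, 297 and 169 CPM (-1.79 ± 0.24, adjusted p = 8.02e-05).

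Sarcomere genes changed in both directions, 4 higher and 3 lower of 46 tested (15.2%, against 8.10% of all genes tested). Synpo2l, a Z-disc protein, rose by 1.47 ± 0.28 (adjusted p = 0.00237), while its relative Synpo2 fell by 0.50 ± 0.11 (adjusted p = 0.00536). Mybpc2, the fast skeletal myosin-binding protein, rose by 0.79 ± 0.20 (adjusted p = 0.0146), and Pdlim1, a PDZ and LIM protein, by 0.39 ± 0.09 (adjusted p = 0.00886). Tmod4, which caps thin filaments, fell by 0.50 ± 0.11 (adjusted p = 0.00873).

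Of 43 calcium-handling genes, 1 was called higher (2 without WT CD 2) and 3 lower, with a median of -0.03. These 4 calls are 9.3% of the list, a share near the 8.10% of all genes tested. Atp2a2, the calcium pump SERCA2 of the sarcoplasmic reticulum, stood at 15533, 16465, 15802 and 15948 CPM in WT and at 9913, 8454, 6691, 9844 and 6879 CPM in Gαq. The WT libraries were nearly equal, every Gαq library was lower, and the fall was 0.93 ± 0.16 on the log2 scale, or 1.91-fold (adjusted p = 0.000921). Ryr2, the release channel, stood at 2153, 2118, 1693 and 2140 CPM in WT and at 1411, 1005, 946, 1124 and 1066 CPM in Gαq (-0.87 ± 0.22, adjusted p = 0.0171, and 0.0532 without WT CD 1). Pln, the inhibitor of the pump, ran from 4479 to 6581 CPM in WT and from 4717 to 6424 CPM in Gαq (-0.03 ± 0.13, adjusted p = 0.922). Casq1, the skeletal calsequestrin, stood at 77.0, 74.3, 48.6 and 58.3 CPM in WT and at 238, 281, 206, 416 and 115 CPM in Gαq and rose by 1.96 ± 0.28 (adjusted p = 0.00016). Tmem38a, a potassium channel that balances charge during calcium release, fell by 0.44 ± 0.10 (adjusted p = 0.00928).

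Ion channel and connexin genes leaned downward, with 9 called lower and 1 higher of 46 (21.7%, against 8.10% of all genes tested). Apart from Scn4b, the skeletal sodium channel Scn4a fell from 40.6, 49.3, 42.0 and 61.3 CPM to 19.5, 6.91, 6.45, 13.3 and 15.1 CPM (-1.98 ± 0.28, adjusted p = 0.000124). Kcnj3, a subunit of the acetylcholine-gated potassium channel, fell by 1.5 ± 0.16 (adjusted p = 5.4e-06). The subunits of the transient outward potassium current were also lower. Kcnd2, a pore subunit, stood at 30.3 to 41.0 CPM in WT and 17.8 to 23.9 CPM in Gαq (-0.83 ± 0.18, adjusted p = 0.00591), and its partner Kcnip2 at 298 to 352 and 206 to 250 CPM (-0.53 ± 0.12, adjusted p = 0.00643), with no overlap for either. The other genes called lower were Kcnv2, Kcnk1, Kcnk3 and Abcc9. Gjc1, connexin 45, rose by 0.94 ± 0.14 (adjusted p = 0.00016). Among 48 cardiac transcription factors, 4 (8.3%, against 8.10% of all genes tested) were called. Hif1a and Irx5 were called higher and Hand2 and Gata6 lower, the latter pair with 0 called without WT CD 5, Gαq CD 7 or Gαq CD 9.

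**Figure D3:**
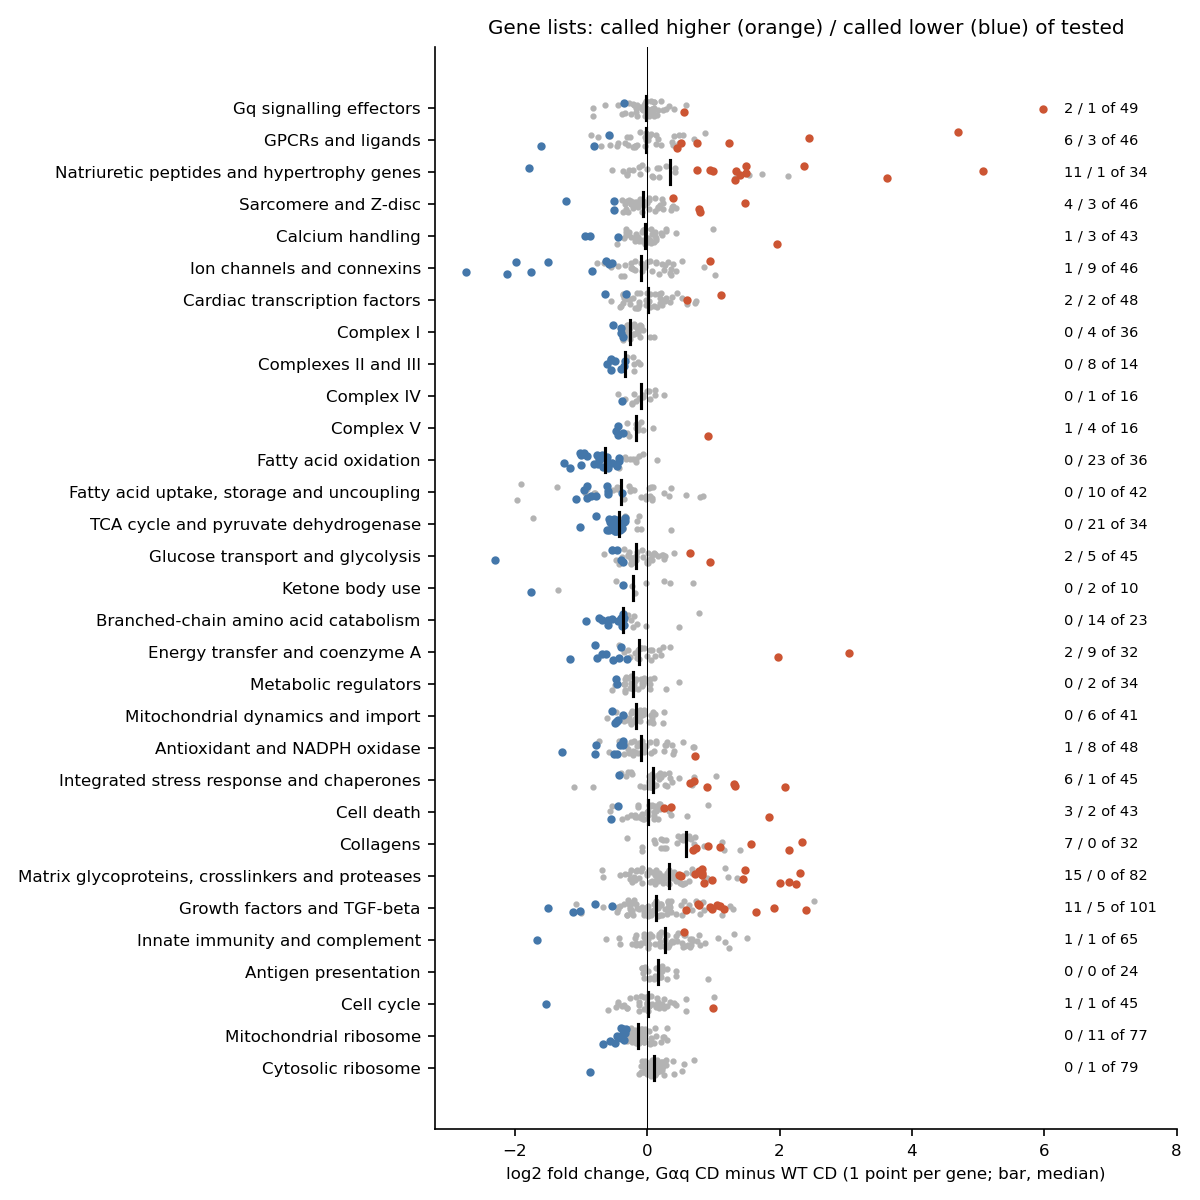
Each row is a gene list and each point a gene, placed by its log2 fold change in Gαq CD over WT CD (x axis), with a bar at the median of the list. Orange points were called higher and blue points lower, with their counts at the right. Points of fatty acid oxidation, the TCA cycle and branched-chain amino acid catabolism lie almost wholly to the left of 0, and those of collagens to the right.

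Genes of fuel oxidation in mitochondria formed the lists with the largest shares of calls, against 8.10% called (4.10% lower) of all genes tested. Of 36 genes of fatty acid oxidation, 23 (63.9%) were called lower and 0 higher, and the median log2 fold change was -0.64. Of 34 genes of the TCA cycle and pyruvate dehydrogenase, 21 (61.8%) were called lower and 0 higher (median -0.42), and of 23 genes of branched-chain amino acid catabolism, 14 (60.9%) were called lower and 0 higher (median -0.37). The genotypes did not overlap, with Gαq lower, for 17, 17 and 11 members, against 748 of all 16270 genes tested. With Gαq higher, they did not overlap for 0, 0 and 2 members, against 764 of all genes tested. The number called lower ran from 18 to 25 for fatty acid oxidation over the 9 fits that each left out 1 library. For the TCA cycle it was 12 without WT CD 1 or WT CD 2 and 13 without Gαq CD 7. For branched-chain amino acids it was 6 or 7 without WT CD 1, WT CD 2 or Gαq CD 7, 8 without Gαq CD 9 and 9 without Gαq CD 10.

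The fall in fatty acid oxidation spanned its steps. It took in activation and carnitine transport (Acsl1, Cpt2, Slc25a20, Slc22a5, Crat), the dehydrogenases (Acadvl, Acadm, Acads, Acad11), the later enzymes (Hadha, Hadhb, Echs1, Acaa2 and others) and the electron carriers Etfa, Etfb and Etfdh. Ech1, which handles unsaturated fatty acids, stood at 1128, 1303, 1079 and 985 CPM in WT and at 549, 403, 480, 402 and 681 CPM in Gαq (-1.16 ± 0.14, adjusted p = 4.3e-05). Acadvl, the very long-chain dehydrogenase, stood at 1630, 1771, 1335 and 1369 CPM in WT and at 933, 668, 753, 726 and 975 CPM in Gαq (-0.91 ± 0.12, adjusted p = 9.37e-05). Neither gene overlapped between genotypes. Cpt2, the inner carnitine palmitoyltransferase, fell 2.01-fold (adjusted p = 0.000243). Acadm, the medium-chain dehydrogenase, fell from 1486 to 2153 CPM in WT to 1072 to 1259 CPM in Gαq (-0.61 ± 0.11, adjusted p = 0.000944). Cpt1b, the muscle form of the outer transferase, ran from 8.33 to 20.6 CPM in WT and from 5.8 to 12.5 CPM in Gαq and was not called (-0.76 ± 0.25, adjusted p = 0.0737). It was called by DESeq2 (adjusted p = 0.0398), by voom (0.0424), without a filter on low counts (0.0459) and without WT CD 4 (0.0194) or Gαq CD 6 (0.0324).

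The promoter of Acadm is shown as a member of the group that fell and because it holds AAGGTCA, the half-site of nuclear receptors such as the estrogen-related receptors, which are known to drive such genes. The 250 bases before the RefSeq start, 5′ to 3′ on the minus strand of GRCm38.p6, lie at chr3:153944644-153944893. Capitals mark the motif, which is read here on the opposite strand and starts at position -249.
Acadm: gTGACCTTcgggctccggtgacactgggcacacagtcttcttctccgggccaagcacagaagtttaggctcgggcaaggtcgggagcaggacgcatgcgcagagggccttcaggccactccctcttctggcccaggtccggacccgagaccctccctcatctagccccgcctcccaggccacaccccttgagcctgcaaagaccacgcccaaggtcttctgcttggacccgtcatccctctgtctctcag
AAGGTCA was found on either strand in 3.32% of the windows of 300 bases of all genes tested, in 4.5% of those of genes called higher, in 4.26% of those of genes called lower, and in 3 (4.76%) of the 63 windows of the genes of these 3 oxidation lists that were called lower.

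In the TCA cycle, Suclg2, a subunit of succinyl-CoA ligase, stood at 182, 229, 183 and 168 CPM in WT and at 122, 102, 101, 119 and 111 CPM in Gαq (-0.78 ± 0.10, adjusted p = 6.37e-05). Sucla2, its partner subunit, fell by 0.55 ± 0.10 (adjusted p = 0.000904), and Dld, the subunit shared by the pyruvate, oxoglutarate and branched-chain dehydrogenases, fell by 0.58 ± 0.10 (adjusted p = 0.00071). The other genes called lower included Cs, Idh2, Ogdh and all 3 subunits of Idh3, as well as Pdha1, Pdhb, Pdhx and Mpc2 at the entry of pyruvate. In branched-chain amino acid catabolism, Aldh6a1 fell by 0.73 ± 0.10 (adjusted p = 0.000112), Hibadh by 0.60 ± 0.08 (adjusted p = 8.02e-05) and Ppm1k, the phosphatase that activates the branched-chain dehydrogenase, by 0.92 ± 0.13 (adjusted p = 9.74e-05). Bckdha, Bckdhb and Dbt, which form that dehydrogenase, were called lower too.

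Pdk4, the kinase that turns off pyruvate dehydrogenase and rises when fatty acids are burned, varied more within genotypes than between them. It stood at 3973, 3501, 165 and 3497 CPM in WT and at 1871, 150, 261, 105 and 1816 CPM in Gαq, so that WT CD 4 was low, Gαq CD 6 and 10 were intermediate and Gαq CD 7, 8 and 9 were low (-1.73 ± 0.77, adjusted p = 0.199). Ucp3, the uncoupling protein of muscle, was likewise low in WT CD 4 and Gαq CD 7, 8 and 9, with 229, 240, 23.1 and 187 CPM in WT and 79.6, 8.22, 14.8, 10.4 and 104 CPM in Gαq (-1.96 ± 0.65, adjusted p = 0.0692). It was called without WT CD 4 (adjusted p = 0.0207), Gαq CD 6 (0.0469) or Gαq CD 10 (0.0186), as well as by voom, without a filter and on the deposited transformed values. Ech1, Acadvl and Cpt2 did not overlap between genotypes, so they were lower in each Gαq library than in WT CD 4. Like Pdk4, they were higher in Gαq CD 6 and 10 than in Gαq CD 7, 8 and 9. Cpt2, for example, stood at 154, 101, 111, 114 and 152 CPM in Gαq CD 6 to 10. In WT, Cpt2 and Acadvl were lowest in WT CD 4, and Ech1 in WT CD 5. Without WT CD 4, 25 members of the fatty acid oxidation list were called lower, without Gαq CD 6 24, and without Gαq CD 10 25. What sets the Pdk4 level of a library was not tested.

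**Figure D4:**
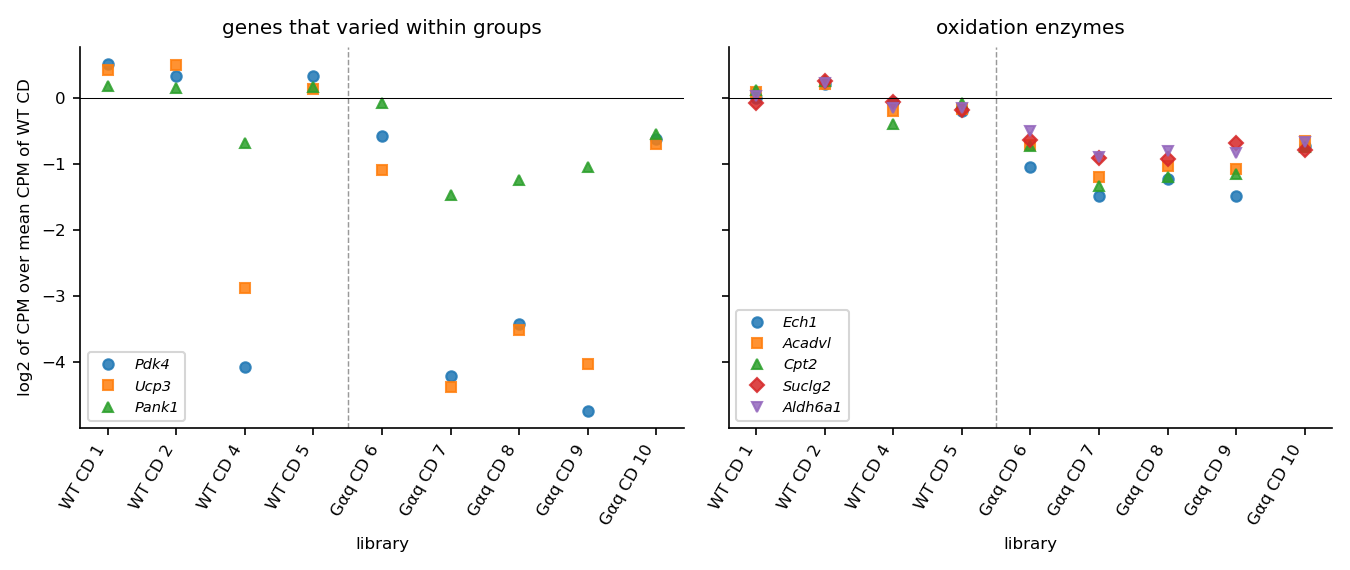
Log2 of the CPM of each CD library over the mean CPM of WT CD (y axis) for 3 genes that varied within genotypes (left) and 5 oxidation enzymes (right), by library (x axis). Pdk4 and Ucp3 are low in WT CD 4 and in Gαq CD 7, 8 and 9. The enzymes at the right are lower in all 5 Gαq libraries than in any WT library. All of these enzymes but Suclg2 are also higher in Gαq CD 6 and 10 than in Gαq CD 7, 8 and 9.

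The other genes of lipid handling fell in part. Of 42 genes of fatty acid uptake, storage and uncoupling, 10 (23.8%) were called lower and 0 higher (median -0.40). Of all genes tested, 4.10% were called lower. Plin4, Plin5, Lpl and Gpam were among the 10. Dgat2, which makes triglyceride, stood at 443, 293, 277 and 312 CPM in WT and at 217, 128, 130, 142 and 170 CPM in Gαq (-1.07 ± 0.16, adjusted p = 0.00019). Fitm2, which helps to form lipid droplets, fell by 0.85 ± 0.11 (adjusted p = 8.49e-05). Cd36, the fatty acid translocase, ran from 2011 to 3130 CPM in WT and from 1509 to 2739 CPM in Gαq (-0.46 ± 0.19, adjusted p = 0.158). The number called lower was 4 without WT CD 1, WT CD 2 or Gαq CD 7, 6 without Gαq CD 8 and 16 without Gαq CD 10.

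Ketone and glucose genes had smaller shares of calls than the lists of fuel oxidation. Of 10 genes of ketone use, 2 were called lower and 0 higher (20.0%, against 8.10% of all genes tested). The number called lower ran from 1 to 3 when 1 library was left out. The share called was 15.6% for glucose transport and glycolysis. Bdh1, the mitochondrial enzyme that oxidises hydroxybutyrate, stood at 219, 221, 293 and 232 CPM in WT and at 102, 64.9, 79.9, 85.6 and 27.2 CPM in Gαq (3.36-fold lower, -1.75 ± 0.27, adjusted p = 0.00027). Oxct1, the next enzyme of ketone use, ran from 1395 to 1742 CPM in WT and from 1119 to 1622 CPM in Gαq (-0.19 ± 0.13, adjusted p = 0.468). Among 45 genes of glucose transport and glycolysis, 2 were called higher, Gyg, the primer of glycogen (0.65 ± 0.09, adjusted p = 8.02e-05), and Pfkp, the platelet form of phosphofructokinase (0.95 ± 0.14, adjusted p = 0.000258). The 5 called lower were Pfkfb1, Ldhd, Gys1, Pgm1 and Bpgm, but 2 were called without WT CD 1, WT CD 2 or Gαq CD 7 and 3 without Gαq CD 8 or 9. The glucose transporters Slc2a1 and Slc2a4 had log2 fold changes of -0.28 ± 0.17 (adjusted p = 0.376) and -0.47 ± 0.17 (adjusted p = 0.0961).

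The medians of the respiratory chain lists were below 0, but most members of complexes I, IV and V were not called. In either direction, 11.1% of complex I, 57.1% of complexes II and III, 6.2% of complex IV and 31.2% of complex V were called. Of all genes tested, 8.10% were called. Complexes II and III had 8 of 14 genes called lower (median -0.34, and 5 called without WT CD 1, 2 or 4 or Gαq CD 7), complex I 4 of 36 (median -0.26), complex IV 1 of 16 (median -0.10) and complex V 4 of 16 (median -0.17, with 1 called without WT CD 1 and 2 without WT CD 4, Gαq CD 7 or Gαq CD 8). Of the 36 genes of complex I, 34 had a log2 fold change below 0, and its number called lower was 13 with DESeq2, 14 with voom and 13 without WT CD 5. For complex I it was 7 without Gαq CD 6, 2 without WT CD 2 or 4 or Gαq CD 7 or 8, and 1 without WT CD 1. The member of complex IV called lower, Cox4i1, was not called without WT CD 1, 2 or 4 or Gαq CD 7, 8 or 9 (adjusted p up to 0.145), while DESeq2 and voom each called 3 members of that complex lower. Sdha, the flavoprotein of complex II, stood at 1752, 2076, 1746 and 1615 CPM in WT and at 1403, 1132, 1139, 1284 and 1182 CPM in Gαq (-0.55 ± 0.10, adjusted p = 0.00189). Uqcrfs1, the iron-sulfur protein of complex III, fell by 0.54 ± 0.10 (adjusted p = 0.00133), and Ndufs7, a core subunit of complex I, by 0.52 ± 0.12 (adjusted p = 0.00847). Atpif1, the inhibitor of the ATP synthase, went the other way, from 113, 116, 125 and 100 CPM in WT to 204, 174, 225, 192 and 276 CPM in Gαq (0.92 ± 0.14, adjusted p = 0.000311). Of 77 genes of the mitochondrial ribosome, 11 (14.3%) were called lower and 0 higher, against 4.10% called lower of all genes tested. The number called lower was 20 without WT CD 5 and 4 to 7 without WT CD 1 or 2 or Gαq CD 7, 8 or 9. Of 41 genes of mitochondrial dynamics and import, 6 (14.6%) were called lower and 0 higher (median -0.16), or 3 lower without WT CD 1 or 2. Of 79 genes of the cytosolic ribosome, 1 (1.3%) was called, against 8.10% of all genes tested. It was the muscle-specific Rpl3l, which fell by 0.87 ± 0.14 (adjusted p = 0.000444).

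Of 32 genes of energy transfer and coenzyme A, 2 were called higher and 9 lower (34.4%, against 8.10% of all genes tested). The number called lower was 5 without WT CD 1. Ckm and Ckmt2, the cytosolic and mitochondrial muscle creatine kinases, fell by 0.62 ± 0.13 and 0.52 ± 0.12 (adjusted p = 0.00368 and 0.0103, the second 0.0524 without WT CD 1). Ckmt1, the ubiquitous mitochondrial form, stood at 0.398 to 0.753 CPM in WT and at 1.47 to 4.21 CPM in Gαq (1.98 ± 0.34, adjusted p = 0.000891). Nampt, which makes NAD from nicotinamide, fell by 0.69 ± 0.13 (adjusted p = 0.00201). Pank1, of coenzyme A synthesis, fell by 0.78 ± 0.23 (adjusted p = 0.0397), with an overlap between genotypes. Pank1 was not called without WT CD 1, 2 or 5 or Gαq CD 7, 8 or 9 (adjusted p up to 0.121). Nmrk2, the muscle kinase of nicotinamide riboside, stood at 9.62, 3.76, 19.7 and 4.52 CPM in WT and at 42.0, 146, 122, 66.3 and 15.3 CPM in Gαq. The rise was 8.31-fold (3.05 ± 0.76, adjusted p = 0.0157), with an overlap at Gαq CD 10, and was not called without WT CD 1 or WT CD 2 (adjusted p up to 0.0621). Most regulators of these pathways were not called. Ppargc1a, the coactivator PGC-1 alpha, ran from 96.4 to 163 CPM in WT and from 88.9 to 124 CPM in Gαq (-0.34 ± 0.16, adjusted p = 0.252). Ppara and Esrrg, nuclear receptors of fuel genes, had log2 fold changes of -0.28 ± 0.22 and -0.10 ± 0.17 (adjusted p = 0.523 and 0.812). Esrra, the estrogen-related receptor alpha, was at 139 to 172 CPM in WT and 115 to 139 CPM in Gαq (-0.24 ± 0.09, adjusted p = 0.094). Of the 34 regulators tested, Rxrg and Polrmt were called lower and 0 higher (5.9%, against 8.10% of all genes tested). The median was -0.21, and 0 were called without WT CD 1 or 2 or Gαq CD 7 or 8.

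Stress and survival genes held smaller groups of calls. Of 45 genes of the integrated stress response and chaperones, 6 were called higher and 1 lower (15.6%, against 8.10% of all genes tested). Mthfd2, a mitochondrial folate enzyme induced by ATF4, stood at 3.98, 2.56, 2.02 and 4.33 CPM in WT and at 16.2, 10.9, 13.8, 12 and 15 CPM in Gαq (4.22-fold, adjusted p = 1.13e-05). Asns, asparagine synthetase, rose by 1.31 ± 0.19 (adjusted p = 0.000136) and the factor Atf5 by 0.70 ± 0.12 (adjusted p = 0.000578), and the other higher members were Aldh18a1, Pycr1 and Hspb3. The mitochondrial folate enzyme Shmt2 was the member called lower (-0.43 ± 0.12, adjusted p = 0.0254, up to 0.0815 without WT CD 1, 2 or 5 or Gαq CD 7 or 8). Bcl2, which blocks apoptosis, stood at 12.4, 11.6, 16.7 and 16.6 CPM in WT and at 42.6, 64.6, 48.4, 60.9 and 40.9 CPM in Gαq (3.6-fold, adjusted p = 1.26e-05). It was 1 of 3 genes called higher, with 2 called lower, among 43 cell-death genes (11.6%, against 8.10% of all genes tested). Bcl2 and Aifm1, the latter lower, were called whichever library was left out. Bcl2l2 was called in 0 of these 9 fits, Bcl2l11 only without Gαq CD 10, and Bak1 in all but those without WT CD 1, 2 or 4 or Gαq CD 9. Of 48 antioxidant and NADPH oxidase genes, 8 were called lower and 1 higher (18.8%, against 8.10% of all genes tested). The gene called higher, Gpx8, was not called without WT CD 1, 2 or 5 or Gαq CD 7 or 8. Nqo1, a quinone reductase controlled by NRF2, stood at 72.9, 120, 81.2 and 89.8 CPM in WT and at 49.3, 29.3, 35.2, 34.6 and 39.2 CPM in Gαq (-1.28 ± 0.17, adjusted p = 8.49e-05), and Gclm, Txnrd1, Sod2, Prdx3, Prdx6, Gsta4 and Gstk1 were also called lower.

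Genes of the extracellular matrix were higher or not called. Of 32 collagen genes, 7 (21.9%) were called higher and 0 lower (median 0.59), against 4.00% called higher of all genes tested. Of 82 genes of matrix glycoproteins, crosslinkers and proteases, 15 (18.3%) were called higher and 0 lower (median 0.33). Both counts depended on WT CD 5, which had the highest matrix levels among the WT libraries. Without it, 16 collagens and 29 of the other matrix genes were called higher, whereas without WT CD 1, 2 or 4 the numbers were 3 for collagens and 6 or 7 for the rest. Leaving out Gαq CD 7, 8 or 9 gave 4 collagens, and leaving out Gαq CD 8 gave 7 other matrix genes. With voom, 14 collagens were called higher. Col1a1, the main fibrillar collagen chain, stood at 143, 112, 89.1 and 287 CPM in WT and at 284, 296, 321, 387 and 207 CPM in Gαq, so that WT CD 5 lay among the Gαq libraries (0.92 ± 0.28, adjusted p = 0.0465). It was not called without WT CD 1, 2 or 4 or without Gαq CD 6, 7, 8 or 9 (adjusted p up to 0.154). Col3a1 ran from 242 to 504 CPM in WT and from 328 to 748 CPM in Gαq (0.71 ± 0.29, adjusted p = 0.153, and 0.0498 without WT CD 5). Postn, periostin, ran from 51.4 to 169 CPM in WT and from 67.0 to 231 CPM in Gαq (0.67 ± 0.37, adjusted p = 0.327, and 0.0471 without WT CD 5).

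Other matrix genes separated the genotypes. Col4a3, a chain of basement membrane collagen, stood at 6.68, 4.27, 4.68 and 7.09 CPM in WT and at 12.4, 11.8, 13.1, 13.5 and 10.3 CPM in Gαq (1.11 ± 0.22, adjusted p = 0.003). Fbn2, a fibrillin of fetal tissue, stood at 0.691, 1.02, 1.68 and 2.45 CPM in WT and at 8.84, 5.37, 5.21, 8.63 and 8.1 CPM in Gαq (4.96-fold, adjusted p = 0.000268). Thbs4, thrombospondin 4, stood at 8.82 to 30.2 CPM in WT and 40.2 to 76.7 CPM in Gαq (2.8-fold, adjusted p = 0.0101), and Ctsk, a collagen-degrading cathepsin, rose by 0.84 ± 0.13 (adjusted p = 0.000257). Pcolce, which enhances procollagen processing, rose by 0.83 ± 0.14 (adjusted p = 0.000971). The 10 fibroblast markers summed to 4815, 3445, 3523 and 6684 CPM in WT and to 5122, 5201, 7697, 5710 and 5957 CPM in Gαq, with 2 of 10 called higher, Col1a1 and Lum, and a median of 0.55. In bulk tissue, more cells of a type and more RNA per cell cannot be told apart, and the part of fibroblast number in the matrix values was not tested.

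Among 101 growth factor genes and their partners, 11 were called higher and 5 lower (15.8%, against 8.10% of all genes tested). Tgfb3, a transforming growth factor, stood at 22.8, 22.1, 22.5 and 30.0 CPM in WT and at 34.5, 50.2, 64.0, 46.4 and 44.6 CPM in Gαq (0.98 ± 0.16, adjusted p = 0.00061). Tgfb2 overlapped between genotypes (0.95 ± 0.25, adjusted p = 0.0208, up to 0.0915 without WT CD 1 or 4 or Gαq CD 7 or 8). Ccn2, a target of this pathway, ran from 99.9 to 410 CPM in WT and from 274 to 688 CPM in Gαq (0.86 ± 0.38, adjusted p = 0.197). Angpt1, a ligand that stabilises vessels, fell from 30.4, 46.3, 34.1 and 33.2 CPM to 10.6, 7.59, 12.8, 11.9 and 20.5 CPM (-1.5 ± 0.24, adjusted p = 0.00043), and Pgf, placental growth factor, fell by 1.01 ± 0.19 (adjusted p = 0.00211). The number called higher was 19 without WT CD 5 and 6 or 7 without WT CD 1, 2 or 4 or Gαq CD 7 or 8. The number called lower was 3 without WT CD 1, Gαq CD 7 or Gαq CD 9.

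Of 65 genes of innate immunity and complement, 1 was called higher, Tlr2, and 1 lower, Cxcl14 (3.1%, against 8.10% of all genes tested). The median of this list was 0.27, against 0.01 for all genes tested, and 47 of its 65 members were above 0. Of 24 genes of antigen presentation, 0 were called with edgeR and voom and 1 with DESeq2. Tlr2, a receptor of bacterial lipopeptides, was not called without WT CD 1, 2, 4 or 5 or Gαq CD 7 or 8 (adjusted p up to 0.121), and 4 genes of the first list were called higher without Gαq CD 6. The chemokine Cxcl14 stood at 38.1, 12.8, 27.8 and 22.8 CPM in WT and at 6.94, 7.16, 9.46, 9.05 and 7.3 CPM in Gαq (-1.67 ± 0.23, adjusted p = 0.000123). Summed macrophage markers overlapped between genotypes, at 365.1 to 577.9 and 422.6 to 700.7 CPM, with 0 of 10 called. T lymphocyte markers, of which 5 of 10 passed the filter, summed to 3.387 to 6.015 CPM in WT and 6.203 to 9.973 CPM in Gαq (median 0.75), with Cd4 called higher (adjusted p = 0.00911). On plain library totals, an alternative chosen after seeing the data, these sums overlapped, at 3.51 to 6.07 and 5.99 to 10.3 CPM. B lymphocyte markers summed to 15.73 to 17.94 and 17.92 to 30.51 CPM (median 1.05, 7 of 10 tested), with Cd79b called higher (adjusted p = 0.0168), and on plain totals they did not overlap, at 15.3 to 18.6 and 18.7 to 32.6 CPM. Pericyte and smooth muscle markers did not overlap, at 2092 to 2115 CPM in WT and 1542 to 1871 CPM in Gαq, although only Abcc9 of 10 was called (median -0.23). Mesothelial markers had a median of 2.04, with only Krt18 of 9 tested called, higher in Gαq. Their sums were 13.19 to 23.4 CPM in WT and 19.65 to 74.78 CPM in Gαq. The highest sum was that of Gαq CD 8, and Gαq CD 6 and 9 lay within the WT range. Of 10 skeletal muscle markers, 4 passed the filter, and nearly all of their summed level was Ckm, which the heart also expresses. The other tested markers went both ways and none was called, with log2 fold changes of 2.57 for Pvalb, 0.51 for Tnnt3 and -1.26 for Tnni2 (adjusted p = 0.170, 0.626 and 0.0635). Of 45 cell cycle genes, Ccnd2 was called higher, with an overlap between genotypes, and Cenpf lower (4.4%, against 8.10% of all genes tested). Ccnd2 was not called without WT CD 1 or 2 or Gαq CD 7, 8 or 9 (adjusted p up to 0.129).

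The ERTU libraries gave a second comparison of Gαq with WT that shares no library with the one on CD. Both came from the same fit, with 1 shared estimate of the spread of each gene. The calls on CD and on ERTU are thus not independent. On ERTU, 1330 of 16270 genes (8.17%) were called, 640 (3.93%) higher and 690 (4.24%) lower. Of the 1318 genes called on CD, 1311 (99.5%) had the same sign on ERTU, against 73.1% of all genes tested, and 848 were called on both diets, which is 64.3% of the calls on CD and 63.8% of those on ERTU. Across these 1318 genes, which are not independent replicates, the log2 fold changes of the comparisons correlated with r = 0.945. The 7 genes with opposite signs were not called on ERTU. The median log2 fold change of the genes called higher on CD was 0.90 on CD and 0.74 on ERTU, and that of the genes called lower was -0.60 and -0.55. The genes were chosen on CD, so a smaller value on ERTU does not by itself show a weaker effect. A test of the difference between the comparisons called 0 genes with edgeR (313 at an unadjusted p under 0.05), 0 with DESeq2 (412) and 0 with voom (953). Without any difference, a share of about 0.05 of the 16270 genes tested with edgeR and voom would pass the unadjusted limit by chance.

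Among the genes described above, Nppa (5.07 on CD and 4.99 on ERTU), Rxfp1 (4.69 and 4.54) and Atp2a2 (-0.93 and -1.0) had close log2 fold changes on both diets. Larger gaps were seen for Rcan1 (1.49 and 0.85), Nmrk2 (3.05 and 1.36), Pde11a (-2.02 and -0.69) and Fbp2 (-2.12 and -1.23), but none of these differences was called. The gene with the smallest p of that test was Lcp2, an adaptor of T cell and myeloid signalling, which stood at 2.36, 2.73, 2.2 and 2.63 CPM in WT CD and at 4.85, 4.69, 6.13, 4.76 and 5.81 CPM in Gαq CD. It rose by 1.08 ± 0.18 on CD (adjusted p = 0.000578), while its log2 fold change on ERTU was -0.14 (adjusted p = 0.718). Next came Kif14, a mitotic kinesin (0.38 on CD and -1.47 on ERTU), and Themis2, a signalling protein of immune cells (0.30 and -0.30).

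**Figure D5:**
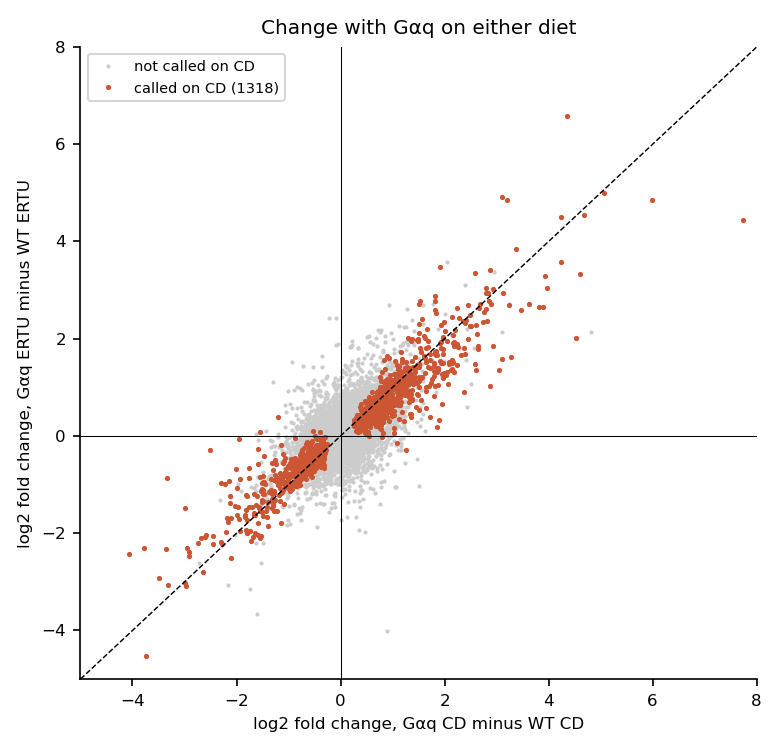
Log2 fold change of Gαq over WT on CD (x axis) against the same on ERTU (y axis) for all genes tested, with the 1318 genes called on CD in orange and the line of equal change dashed. All but 7 of the orange points lie in the lower left and upper right.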

How the data were processed

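Per the labels and the methods of the study, poly(A)-selected libraries were sequenced, and the authors aligned the read pairs to mm10 with STAR 2.6.0c and counted uniquely aligned pairs on nuclear-encoded genes with featureCounts (Subread 1.6.2). The deposited count table holds these raw counts, and a deposited table of log2-like values holds the variance-stabilizing transformation the authors made with DESeq2. From the counts, genes were kept by filterByExpr on 4 groups (16270 of 55450 genes; the others held 0.0906% of counts), scaled by TMM and tested with quasi-likelihood F tests of edgeR 4.0.16 in R 4.3.3, with 1 mean per group over 18 libraries. Benjamini-Hochberg adjustment covered every tested gene (threshold 0.05), and SE is the log2 fold change over the square root of F. Log2 CPM used a prior count of 2. Symbols came from GENCODE M21 (55190 of the gene IDs matched). The steps were tested on simulated data.

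The gene lists, marker lists and the rule for named genes were chosen with earlier results of these data known. Named genes are the 12 largest rises and falls among called genes whose genotypes did not overlap and whose log2 CPM averaged 1 or more, up to 3 called members per list and direction with the smallest adjusted p, listed key genes whether called or not, and the 3 genes with the smallest interaction p. Other called members are given by name only, and a few results are not reported here. Promoters came from RefSeq (GRCm38.p6), and motif counts covered every window of 11243 matched genes. Libraries are named by the numbers in the count table. The methods describe 4 to 5 hearts per group, as many as there are libraries, but no label links a library to its heart, so p-values measure the spread between these libraries. Alternatives were other size factors, other filters on low counts, DESeq2 1.42.0, voom and limma 3.58.1 on the transformed values, only the CD groups, and leaving out each CD library.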

Additional observations from a re-analysis of the deposited data

Results flagged for a closer look

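Of 322 values checked for a library that stood apart within its genotype (log2 CPM of each reported named gene in WT CD and Gαq CD, and total counts), 20 had a gap to the nearest library that took up more of the group's range than Dixon's limit. Chance would give about 16.1. WT CD 4 was the low library for 6 of them: Pank1 (gap of 0.969 of the range), Pdk4 (0.96), Ryr2 (0.931), Ucp3 (0.894), Shmt2 (0.869) and Adra1a (0.84). WT CD 5 was low for Ckm (0.946) and Atp5g3 (0.841) and high for Tgfb3 (0.901). WT CD 1 was high for Bcl2l11 (0.841) and Polrmt (0.829), and WT CD 2 was high for Pink1 (0.832). In Gαq CD, library 8 was low for Myh7 (0.946) and high for Nppb (0.762) and Ckmt1 (0.731), library 6 was high for Gata6 (0.798) and Ppm1k (0.71), library 7 was low for Nmnat3 (0.741), and library 10 was high for Bcl2l11 (0.772) and low for Ctsk (0.776). No reason for these values was tested.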

How the results depend on the processing

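The count of genes called on CD was 1307 with median-of-ratios size factors, 1197 without a filter, 1230 at a mean CPM of 1, 1685 with DESeq2, 1734 with voom, 1341 on the transformed values and 1007 with only the CD groups in the fit, and ran from 788 to 1414 when 1 library was left out. On ERTU it moved from 1330 to 2755 with voom, and the cause was not tested. Libraries were left out for the comparison on CD only. Of 162 named genes, 138 were called, and 105 of these stayed called whichever of the 9 libraries was dropped. With only the CD groups, 19 were no longer called (adjusted p from 0.0505 to 0.121), among them Prkca, Gna12, Cox4i1, Col1a1 and Tgfb2, and the lists called fewer members lower or higher: 7 for branched-chain amino acids, 5 for fatty acid uptake, 5 for complexes II and III, 1 for complex V, 1 for glucose and 9 for matrix genes. Without a filter, 8 genes of branched-chain amino acid catabolism and 1 of complex I were called lower. The sign turned for 4 genes that were not called, Adrb1 (0.078 with voom, -0.16 to 0.13 leaving out 1 library), Pln (-0.136 to 0.038), Ucp2 (-0.45 to 0.002) and Agtr1a (-0.24 to 0.007). No paired analysis was possible because the numbers in the tables run across all groups and are not linked to the numbers in the labels.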
